A study of Mus musculus with 12 samples.

Results

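The 10 genes described here encode cartilage matrix proteins and the Sox factors that control them. They were chosen by name and function, with earlier results of these data known, out of 18335 gene symbols measured in both regions. They comprise aggrecan (Acan), its link protein (Hapln1), the matrilins Matn1 and Matn3, cartilage oligomeric matrix protein (Comp), lubricin (Prg4), chondroadherin (Chad), cytokine-like 1 (Cytl1), and the transcription factors Sox9 and Sox5. Messenger RNA was sequenced from femurs of male mice aged 5 weeks and of mixed background. The diaphysis is the shaft of the bone. The metaphysis is the flared end beside the growth plate, where cartilage is replaced by bone. The groups were metaphysis Dlx3Oc-cKO (cKO from here on), metaphysis wild type (WT, Dlx3+/+), diaphysis cKO and diaphysis WT, with 3 libraries each and 12 in total. Dlx3 encodes a homeobox transcription factor of bone-forming cells. The labels do not name the Cre driver behind the cKO, and the study is known for a line in which the osteocalcin promoter, active in mature osteoblasts, drives Cre. Each library title carries its own number, which may mark an animal, and the metaphysis titles carry the letters GP, but the labels explain neither. The p-values therefore describe the spread among these libraries, which may be technical.

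Aggrecan carries dense sulfated sugar chains that draw water into cartilage and let it resist compression. The link protein pins aggrecan to hyaluronan, and matrilins, Comp and chondroadherin act as adapters between proteoglycans, collagen fibrils and chondrocytes. Sox9 switches on genes of this matrix in chondrocytes, and Sox5 and Sox6 act beside it on shared enhancers. Lubricin differs from the others in being made mainly by cells of the joint surface, the synovium and tendon.

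In the metaphysis, the RNA of aggrecan, its link protein and both matrilins rose in cKO, by 1.26 to 2.50 on a log2 scale, with every cKO library above every WT library. Comp, Chad, Prg4 and Cytl1 varied so much within each genotype that their groups overlapped. Sox9 averaged higher in cKO without passing the test, and Sox5 was close to undetected. In the diaphysis, where most of the matrix genes were several-fold less abundant, 6 of the 10 genes could be tested and 0 passed. Of all 12540 genes tested in that region, 0.0% passed, so this count is not particular to the 10. Levels are in RPKM, reads per kilobase of transcript scaled by mapped reads, so they can be compared between genes. Fold changes are cKO over WT on the log2(RPKM + 0.1) scale, which understates changes of low genes. They come from limma fits over all genes that reached 1 RPKM in 3 or more of a region's 6 libraries, called at a Benjamini-Hochberg adjusted p of 0.05.

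Dlx3 checked the genotype labels. It measured 1.98, 2.80 and 3.24 RPKM in the metaphysis cKO libraries and 8.37, 8.90 and 10.1 RPKM in the metaphysis WT libraries (log2 fold change -1.75 ± 0.18 SE, limma adjusted p = 0.00907). In the diaphysis it measured 0.763, 1.55 and 1.17 RPKM in cKO and 3.22, 7.64 and 13.1 RPKM in WT (-2.52 ± 0.50 SE, limma adjusted p = 1.00). The groups did not overlap in either region, and p was 0.1 in each by an exact permutation test (two-sided), the smallest p that 3 against 3 libraries allow. Col1a1, the main collagen of bone, and Col2a1, that of cartilage, were present in every library, Col2a1 at 313 to 1419 RPKM in the metaphysis and at 38.2 to 169 RPKM in the diaphysis. Depth, read from the spacing of the lowest values, was 24.7 to 34.9 M reads (M, mega) in the metaphysis and 18.6 to 54.2 M in the diaphysis. Diaphysis WT replicate 1 stood apart from the other diaphysis WT libraries, with 1801 RPKM of Col1a1 against 8279 and 11230 RPKM and with 32.6% of its summed RPKM in globin transcripts against 17.9% and 15.1%. Diaphysis fold changes, ratios and contrasts that turn on it are also given without it. In such bulk samples, a higher share of chondrocytes and more RNA per chondrocyte cannot be told apart.

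**Figure D1:**
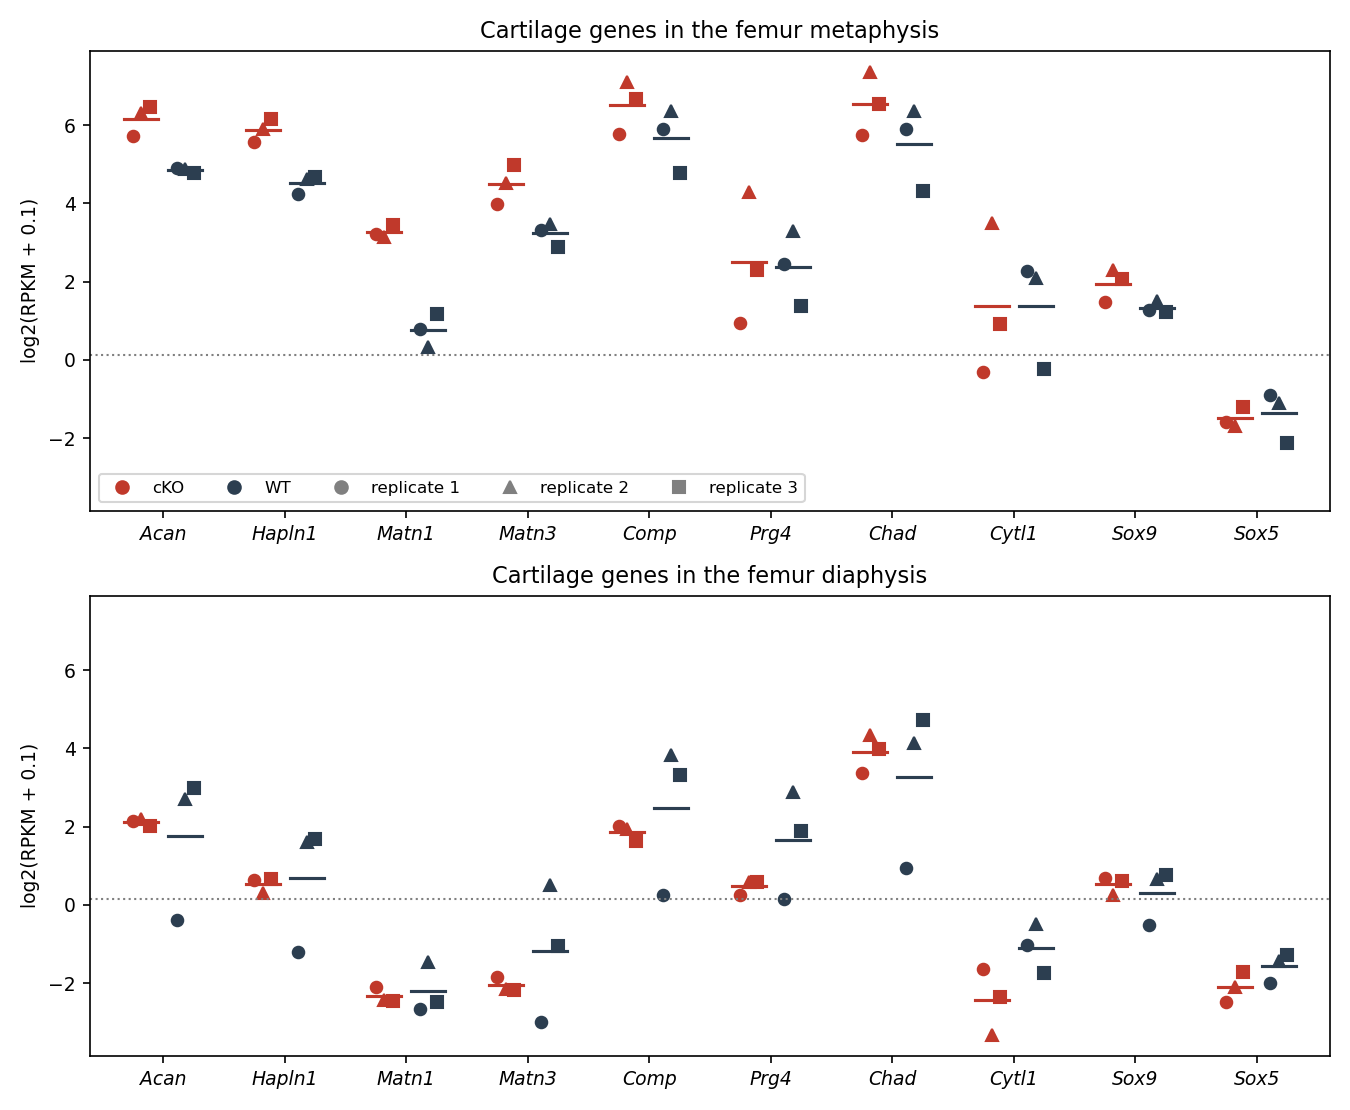
Level of each of the 10 genes in every library, as log2(RPKM + 0.1), with cKO to the left of WT in each region, a marker per replicate, a bar at the mean of the log2 values and a dotted line at 1 RPKM. In the metaphysis the cKO and WT points separate for Acan, Hapln1, Matn1 and Matn3 and interleave for Comp, Prg4, Chad and Cytl1.

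Of the 10 genes, 9 passed the filter on low values in the metaphysis, and 4 of them rose while 0 fell. Over the whole region 11.4% of 12641 tested genes were called, 7.51% higher and 3.89% lower in cKO. The same 4 genes had every cKO library above every WT library, as did 18.7% of all tested genes, and 0 of the 10 had every cKO library below every WT library, against 18.4% of all tested genes. The median log2 fold change of the 9 genes was 1.02, against -0.0363 for all genes tested. Since the genes were chosen with earlier results of these data known, these comparisons with all genes are descriptions and not tests.

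Acan (chr7:86198369-86259985, plus strand, mm9) measured 52.4, 78.7 and 87.5 RPKM in the metaphysis cKO libraries and 29.7, 29.6 and 27.4 RPKM in the metaphysis WT libraries. The WT libraries lay close together and all below the lowest cKO library, while the cKO libraries spread more widely. The means were 72.8 ± 18.2 RPKM in cKO and 28.9 ± 1.32 RPKM in WT (SD, n = 3 each), a log2 fold change of 1.30 ± 0.18 (SE, limma adjusted p = 0.0123). Hapln1 (chr13:89680241-89751437, plus strand) measured 47.6, 59.5 and 71.9 RPKM in cKO and 18.9, 24.6 and 25.6 RPKM in WT. It too separated the genotypes, and its fold change of 1.36 ± 0.18 (SE, limma adjusted p = 0.0115) lay within 1 SE of that of Acan. About 5523 to 20295 reads stood behind each metaphysis value of Acan and 3333 to 11459 behind each of Hapln1, so counting error was small beside the spread between libraries.

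Matn1 (chr4:130500300-130511390, plus strand), also known as cartilage matrix protein, had the highest fold change of the 9 genes. It measured 9.19, 8.80 and 10.9 RPKM in the metaphysis cKO libraries and 1.64, 1.16 and 2.16 RPKM in the metaphysis WT libraries. The lowest cKO library was more than 4 times the highest WT library. The means were 9.63 ± 1.12 RPKM in cKO and 1.66 ± 0.50 RPKM in WT (SD, n = 3 each), a ratio of 5.82 and a log2 fold change of 2.50 ± 0.22 (SE, limma adjusted p = 0.00554). These values rest on about 454 to 688 reads in cKO and 81 to 119 in WT. Matn3 (chr12:8954735-8978834, plus strand), a matrilin mutated in human epiphyseal dysplasia, measured 15.8, 22.7 and 31.5 RPKM in cKO and 9.92, 11.1 and 7.29 RPKM in WT. The cKO values were again above all WT values but came nearer to them, and the fold change was 1.26 ± 0.26 (SE, limma adjusted p = 0.0279). By its mean, Matn1 was higher than Prg4, Cytl1 and Sox9 in cKO metaphysis and lower than all 3 in WT metaphysis. Of these orders, only that with Sox9 held in every library. In cKO replicate 2, Prg4 (19.6 RPKM) and Cytl1 (11.2 RPKM) exceeded Matn1 (8.80 RPKM). In WT replicate 3, Cytl1 (0.747 RPKM) lay below Matn1 (2.16 RPKM).

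The calls for Hapln1 and Matn1 held when any 1 metaphysis library was left out (limma adjusted p of 0.0498 or less for Hapln1 and 0.0388 or less for Matn1). Acan missed the threshold without cKO replicate 3 (limma adjusted p = 0.0505) and without WT replicate 1 (limma adjusted p = 0.0532). Matn3 missed it without cKO replicate 3 or any of the WT replicates (limma adjusted p of 0.0664 to 0.0791). When spread was estimated jointly with the diaphysis libraries, Matn1 was the only 1 of the 4 still called (limma adjusted p = 0.0455), and Hapln1, Acan and Matn3 had adjusted p-values of 0.290, 0.346 and 0.355.

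**Figure D2:**
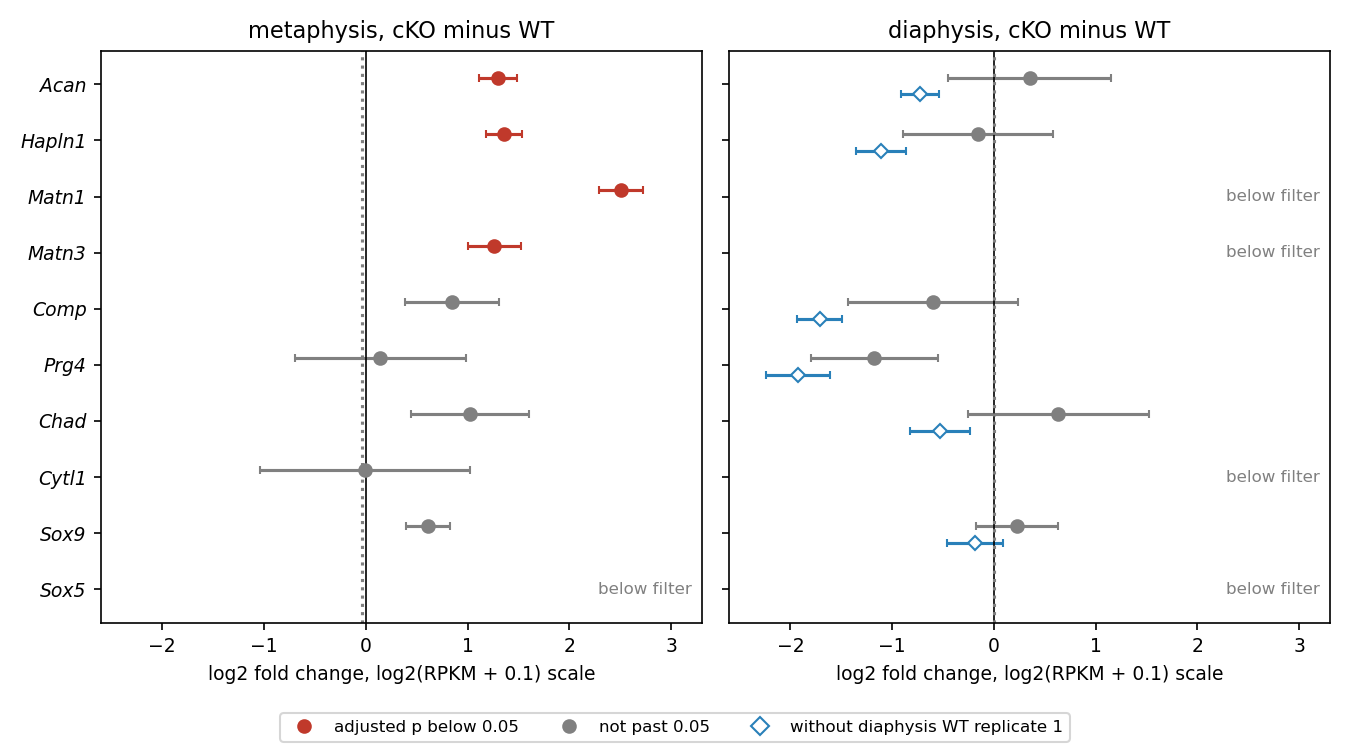
Log2 fold changes of cKO over WT on the log2(RPKM + 0.1) scale, with bars of 1 SE, for the 10 genes in the metaphysis (left) and the diaphysis (right); red marks an adjusted p below 0.05, open diamonds the diaphysis without WT replicate 1, and the dotted line the median of all genes tested. The 4 red points lie between 1.26 and 2.50, and all 6 diamonds lie below 0.

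The stretches of 250 bases just before the annotated starts of the 4 genes that rose are shown with that of Chad, which did not pass. They were searched on both strands for ACAAAG and ACAAT, short versions of the element that Sox factors bind, and for the TATA element TATAAA. The sequences are from RefSeq on GRCm38.p6, a later build than the mm9 of the expression tables, and all read 5′ to 3′ on the plus strand. Acan lies at chr7:79052976-79053225, Hapln1 at chr13:89540386-89540635, Matn1 at chr4:130944135-130944384, Matn3 at chr12:8947679-8947928 and Chad at chr11:94564797-94565046. Capitals mark matches to the motifs.
Acan: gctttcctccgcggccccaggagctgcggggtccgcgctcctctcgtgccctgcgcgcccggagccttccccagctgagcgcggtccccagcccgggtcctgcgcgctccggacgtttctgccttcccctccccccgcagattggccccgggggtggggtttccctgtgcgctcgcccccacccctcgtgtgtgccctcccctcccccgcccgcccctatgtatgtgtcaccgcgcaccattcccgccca
Hapln1: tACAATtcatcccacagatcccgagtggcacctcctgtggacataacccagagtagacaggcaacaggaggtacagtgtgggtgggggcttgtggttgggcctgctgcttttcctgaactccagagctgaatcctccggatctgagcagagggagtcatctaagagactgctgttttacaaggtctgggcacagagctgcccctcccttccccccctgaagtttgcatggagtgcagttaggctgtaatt
Matn1: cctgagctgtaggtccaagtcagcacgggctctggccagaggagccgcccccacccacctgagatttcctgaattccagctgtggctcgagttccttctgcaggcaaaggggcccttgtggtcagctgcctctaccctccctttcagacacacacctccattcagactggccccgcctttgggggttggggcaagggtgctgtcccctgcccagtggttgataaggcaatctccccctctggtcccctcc
Matn3: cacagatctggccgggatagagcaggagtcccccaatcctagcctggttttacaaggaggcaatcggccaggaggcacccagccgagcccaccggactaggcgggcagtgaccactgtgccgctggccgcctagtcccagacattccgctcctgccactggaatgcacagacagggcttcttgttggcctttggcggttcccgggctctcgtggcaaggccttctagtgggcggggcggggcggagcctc
Chad: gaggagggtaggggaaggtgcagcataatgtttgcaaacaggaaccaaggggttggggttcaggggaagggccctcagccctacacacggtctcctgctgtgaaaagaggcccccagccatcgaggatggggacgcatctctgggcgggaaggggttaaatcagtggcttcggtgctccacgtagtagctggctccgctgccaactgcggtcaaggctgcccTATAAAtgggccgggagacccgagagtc
RefSeq promoters were found for 7 of the 10 genes, these 5 with Cytl1 and Sox5. ACAAAG matched 0 of the 7, against 16.5% of 32851 mouse promoters of the same length. ACAAT matched 2 of the 7, Hapln1 at 249 bases before its start and Sox5 at 154 bases before the start used, against 27.7% of all promoters. The Sox5 window, at chr6:143947107-143947356 on GRCm38.p6, falls by its coordinates within the mm9 span of the gene. It may precede a shorter transcript and not the full gene, which was not checked across builds. TATAAA matched Chad alone, 28 bases before its start, against 12.4% of all promoters. A match is a run of letters and not a binding site, and these windows hold none of the distant enhancers of the genes.

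Comp (chr8:72897447-72905964, plus strand), a thrombospondin family protein of cartilage and tendon, measured 54.3, 138 and 102 RPKM in the metaphysis cKO libraries and 60.0, 81.5 and 27.2 RPKM in the metaphysis WT libraries. The lowest cKO library lay between the WT libraries. The log2 fold change was 0.84 ± 0.46 (SE, limma adjusted p = 0.262). Chad (chr11:94426361-94430441, plus strand), a leucine-rich repeat protein that binds chondrocytes through integrins, behaved alike, at 53.4, 165 and 92.6 RPKM in cKO and 59.9, 81.6 and 19.8 RPKM in WT. Its fold change was 1.02 ± 0.58 (SE, limma adjusted p = 0.277). Without WT replicate 3 the fold changes were 0.39 for Comp and 0.42 for Chad, and over all libraries left out they ranged from 0.39 to 1.22 and from 0.42 to 1.44. For both genes cKO replicate 1 was the lowest and cKO replicate 2 the highest of the cKO libraries, and WT replicate 3 was the lowest of all 6. Across the 6 metaphysis libraries, the log2 values of Comp and Chad had a Pearson correlation of 0.99, a description of values that share libraries and genotype.

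Chad lies 0.551 Mb from Dlx3 on the same chromosome and within the span of Acsf2, which runs on the opposite strand and shares 0 exon bases with it. Acsf2 measured 11.8 ± 0.55 RPKM in metaphysis cKO and 8.65 ± 0.77 RPKM in metaphysis WT (SD, n = 3 each; log2 fold change 0.45, limma adjusted p = 0.0335). The library kit does not mark strand, so intronic reads of either gene could not be assigned by strand. Sox9 lies 17.7 Mb from Dlx3. Whether a linked segment of the chromosome differed between the genotypes was not tested.

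Prg4 (chr1:152296542-152313295, minus strand) encodes lubricin, the boundary lubricant of joints. It measured 1.81, 19.6 and 4.84 RPKM in the metaphysis cKO libraries and 5.36, 9.67 and 2.48 RPKM in the metaphysis WT libraries. The highest and the lowest of the 6 values were both cKO libraries, replicates 2 and 1. The log2 fold change was 0.14 ± 0.84 (SE, limma adjusted p = 0.926), and it turned negative without cKO replicate 2 (-0.75). The spread came mostly from 1 of its 2 transcript rows, at 0.433, 17.3 and 4.03 RPKM in cKO and 4.27, 7.56 and 1.42 RPKM in WT. The other row stayed between 0.810 and 2.24 RPKM in the metaphysis. Of 4280 exon bases, 201 are shared with Tpr on the opposite strand, which measured 17.6 ± 2.10 RPKM in metaphysis cKO and 19.1 ± 1.58 RPKM in metaphysis WT (SD, n = 3 each).

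Cytl1 (chr5:38126758-38131059, plus strand), a small secreted protein first known as a cytokine-like product and expressed in cartilage, measured 0.704, 11.2 and 1.79 RPKM in the metaphysis cKO libraries. It measured 4.70, 4.195 and 0.747 RPKM in the metaphysis WT libraries. As with Prg4, the extremes were cKO replicates 2 and 1, and the Pearson correlation of the pair over the 6 libraries was 0.95. The log2 fold change was -0.0077 ± 1.03 (SE, limma adjusted p = 0.998), and its sign changed with the pseudocount, the scaling and the library left out.

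Sox9 (chr11:112643538-112649074, plus strand) measured 2.69, 4.79 and 4.06 RPKM in the metaphysis cKO libraries and 2.30, 2.73 and 2.24 RPKM in the metaphysis WT libraries. The cKO library of replicate 1 lay just under the highest WT library, so the groups overlapped by that 1 value. The means were 3.85 ± 1.07 RPKM in cKO and 2.42 ± 0.27 RPKM in WT (SD, n = 3 each), and the log2 fold change of 0.61 ± 0.22 did not pass (SE, limma adjusted p = 0.111). Without cKO replicate 1 it was 0.84 ± 0.16 and passed (SE, limma adjusted p = 0.0324). Sox5 (chr6:143776945-144730497, minus strand) stayed below the filter, at 0.232, 0.212 and 0.332 RPKM in cKO and 0.441, 0.369 and 0.131 RPKM in WT, and the groups overlapped. Its values rest on about 26 to 111 reads, and 1330 of its 14376 exon bases are shared with a noncoding gene on the opposite strand.

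Ratios within a library are free of library-wide scaling, and Acan served as the denominator. Per unit of Acan, Matn1 was higher in every metaphysis cKO library, with log2 ratios of -2.51, -3.16 and -3.00, than in every metaphysis WT library, with -4.18, -4.67 and -3.66. The difference in means was 1.28 (exact two-sided permutation test, p = 0.1; adjusted p = 0.26 over 13 ratios). Sox9 went the other way, with log2 ratios of -4.29, -4.04 and -4.43 in cKO and -3.69, -3.44 and -3.61 in WT, a difference of -0.67 with the same p-values. With Acan itself higher in cKO, 92.0% of the other 12640 tested genes had every cKO ratio below every WT ratio, as Sox9 did, and 0.0712% had every cKO ratio above, as Matn1 did. For Hapln1 and Matn3 the groups overlapped, at differences of 0.064 and -0.031 (exact two-sided permutation test, p = 0.9 each). For Comp, Chad, Prg4 and Cytl1 the ratios overlapped, with differences of -0.46, -0.28, -1.16 and -1.32. With 3 against 3 libraries none of the 13 ratios could reach an exact p below 0.1.

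**Figure D3:**
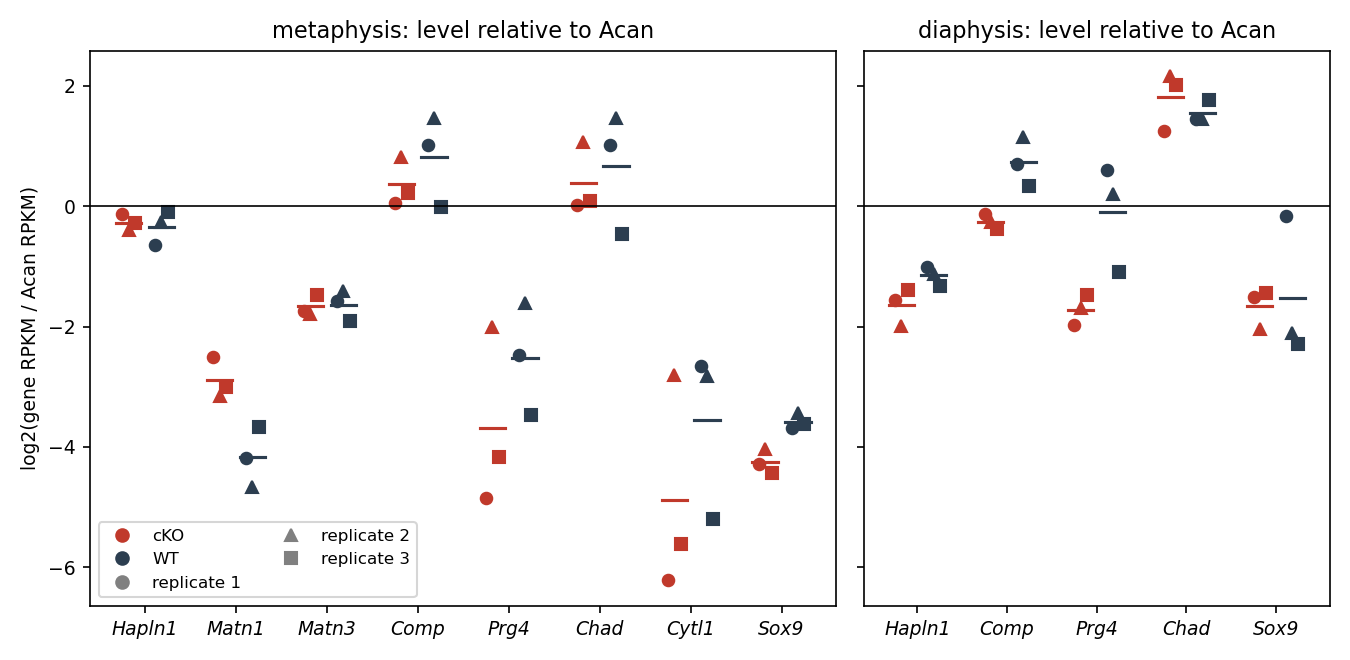
Log2 ratio of each gene's RPKM to that of Acan in the same library, cKO left of WT in each region, with a marker per replicate and a bar at the mean. Matn1 in the metaphysis has its cKO points above its WT points by 1.28 on average, and Sox9 in the metaphysis has its cKO points below by 0.67.

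In the diaphysis 6 of the 10 genes passed the filter, and 0 were called, as were 0.0% of 12540 genes tested (limma, 86 at an unadjusted p under 0.05). Every cKO library was above every WT library in 0 of the 10 genes and below in 0, against 2.24% and 0.789% of all genes tested. Acan measured 4.31, 4.50 and 3.90 RPKM in the diaphysis cKO libraries and 0.665, 6.39 and 7.77 RPKM in the diaphysis WT libraries. WT replicate 1 lay below all cKO libraries and the other WT libraries lay above them. Hapln1 had the same arrangement, at 1.46, 1.14 and 1.48 RPKM in cKO and 0.330, 2.94 and 3.11 RPKM in WT, and so did Comp, at 3.92, 3.76 and 3.01 RPKM in cKO and 1.08, 14.2 and 9.83 RPKM in WT. Prg4 measured 1.09, 1.40 and 1.40 RPKM in cKO and 1.01, 7.34 and 3.62 RPKM in WT. Chad measured 10.3, 20.2 and 15.7 RPKM in cKO and 1.81, 17.4 and 26.4 RPKM in WT. In Prg4, as in the first 3 genes, WT replicate 1 was the lowest library and the other WT libraries were the highest, whereas in Chad they overlapped with cKO. The log2 fold changes were 0.35 ± 0.80 for Acan, -0.15 ± 0.74 for Hapln1, -0.60 ± 0.84 for Comp, -1.18 ± 0.62 for Prg4 and 0.63 ± 0.89 for Chad (SE, limma adjusted p = 1.00 each).

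Without diaphysis WT replicate 1, the log2 fold changes of these genes in the diaphysis were all negative, at -0.72 ± 0.19 for Acan, -1.11 ± 0.25 for Hapln1, -1.71 ± 0.22 for Comp, -1.92 ± 0.32 for Prg4 and -0.53 ± 0.29 for Chad (SE). None passed (limma adjusted p of 0.166 or more; 0 genes called of 12722, 604 at an unadjusted p under 0.05), and 2 WT libraries then stood against 3 cKO libraries. Sox9 measured 1.52, 1.10 and 1.44 RPKM in diaphysis cKO and 0.595, 1.49 and 1.59 RPKM in diaphysis WT, with a log2 fold change of 0.23 ± 0.40 with all libraries and -0.19 ± 0.28 without WT replicate 1 (SE). Sox9 was thus the flattest of the 6 genes in this region once that library was left out.

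Relative to Acan, 3 genes of the diaphysis had every cKO library below every WT library, WT replicate 1 included. The log2 ratio of Comp to Acan was -0.14, -0.26 and -0.38 in cKO and 0.70, 1.15 and 0.34 in WT. That of Prg4 to Acan was -1.98, -1.69 and -1.48 in cKO and 0.61, 0.20 and -1.10 in WT, and that of Hapln1 to Acan was -1.57, -1.99 and -1.40 in cKO and -1.01, -1.12 and -1.32 in WT. The mean differences were -0.98 for Comp, -1.62 for Prg4 and -0.50 for Hapln1 (exact two-sided permutation test, p = 0.1 each, adjusted p = 0.26). Without WT replicate 1 the differences were -1.27 for Prg4 and -0.43 for Hapln1 (exact two-sided permutation test, p = 0.2 each, the smallest that 3 against 2 libraries allow). Leaving out a library cannot undo a full separation, so the separation of these 3 genes was not tested by it. Of the other 12539 genes tested in this region, 0.415% had every cKO ratio to Acan below every WT ratio and 0.104% above. The ratio of Chad to Acan overlapped between the genotypes, except without cKO replicate 1, where every cKO library lay above every WT library (difference 0.53). That of Sox9 overlapped with all libraries (difference -0.14), but without WT replicate 1 every cKO library lay above both WT libraries (difference 0.54, the same exact p of 0.2).

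The other 4 genes were at the edge of detection in the diaphysis. Matn1 lay between 0.0827 and 0.134 RPKM in cKO and between 0.0569 and 0.260 RPKM in WT, on about 5 to 9 and 3 to 22 reads. Matn3 measured 0.178, 0.123 and 0.122 RPKM in cKO and 0.0252, 1.33 and 0.382 RPKM in WT. Cytl1 measured 0.221, 0 and 0.0944 RPKM in cKO and 0.390, 0.608 and 0.197 RPKM in WT, and Sox5 was at 0.313 RPKM or less in all 6 libraries. Matn3 in WT replicate 2 rested on about 169 reads, against 36 in WT replicate 3, 2 in WT replicate 1 and 10 to 20 in cKO. As for Acan, WT replicate 1 was its lowest library and the other WT libraries its highest.

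Set side by side without a test, since the regions were normalized in separate tables, the metaphysis exceeded the diaphysis in all 10 genes and both genotypes. In WT the ratio of the metaphysis mean to the diaphysis mean was 16.3 for Matn3, 12.5 for Matn1, 10.8 for Hapln1, 8.07 for Cytl1, 6.73 for Comp and 5.85 for Acan. It was 3.53 for Chad, 1.98 for Sox9, 1.46 for Prg4 and 1.28 for Sox5. With 1 library left out the WT ratio ranged from 11.04 to 46.4 for Matn3, from 9.74 to 24.2 for Matn1 and from 7.61 to 14.1 for Hapln1, with the highest values for the matrilins when diaphysis WT replicate 2 was left out. It ranged from 4.08 to 8.19 for Acan and from 1.58 to 2.33 for Sox9, and for Prg4 from 0.982, without metaphysis WT replicate 2, to 2.52. Without diaphysis WT replicate 1 it was 4.08 for Acan, 9.74 for Matn1, 11.04 for Matn3 and 1.06 for Prg4. In cKO the ratio was 43.9 for Hapln1, 27.6 for Comp, 17.2 for Acan, 6.75 for Prg4, 6.74 for Chad and 2.85 for Sox9. Each was above its WT ratio. For Chad the ranges with 1 library left out overlapped, at 4.745 to 8.376 in cKO and 2.451 to 5.587 in WT. For the genes below the diaphysis filter the cKO ratios divide by means near the floor, such as 0.141 RPKM for Matn3. These ratios were not compared with WT. By mean RPKM the order in cKO metaphysis was Chad, Comp, Acan, Hapln1, Matn3, Matn1, Prg4, Cytl1, Sox9 and Sox5. Chad and Comp (104 ± 56.7 and 98.3 ± 42.0 RPKM, SD) changed order between the cKO libraries. Acan and Hapln1 (72.8 ± 18.2 and 59.7 ± 12.1 RPKM, SD) kept theirs. Acan was the higher in every cKO metaphysis library, at 52.4, 78.7 and 87.5 RPKM against 47.6, 59.5 and 71.9 RPKM.

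Whether the effect of the genotype differed between the regions was tested as a contrast in 1 limma fit of the 12 libraries. It called 0 of 12959 genes (0.0%; 526 at an unadjusted p under 0.05). The log2 difference, metaphysis effect minus diaphysis effect, was 1.52 ± 0.84 for Hapln1 and 0.95 ± 0.93 for Acan (SE, limma adjusted p of 0.908 and 0.913). Without diaphysis WT replicate 1 the contrast called 101 of 13125 genes (3068 at an unadjusted p under 0.05). Among them were Acan at 2.02 ± 0.26 (SE, limma adjusted p = 0.0304) and Hapln1 at 2.47 ± 0.26 (SE, limma adjusted p = 0.0143). For Acan and Hapln1 the difference between the regions was called only with that library left out, among the settings tried. Matn1 and Matn3 were below the diaphysis filter and entered this fit through the metaphysis alone, so no difference between regions was read for them.

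Other cartilage genes, in lists also chosen with earlier results of these data known, gave a setting for the 4 that rose. Of 8 cartilage collagen genes in the metaphysis, 4 rose, 0 fell and 4 did not pass, with a median log2 fold change of 1.16 against -0.0363 for all genes. Col9a1 measured 48.0, 83.8 and 90.2 RPKM in cKO and 29.5, 36.3 and 24.7 RPKM in WT (log2 fold change 1.26 ± 0.25 SE, limma adjusted p = 0.0260). Col9a3 (1.33 ± 0.29) and Col10a1, the collagen of hypertrophic chondrocytes (1.15 ± 0.27), also rose. Col2a1 was at 670, 1419 and 1301 RPKM in cKO and 564, 607 and 313 RPKM in WT, without overlap, and did not pass (1.18 ± 0.35 SE, limma adjusted p = 0.0689). Col11a1, of the same list, measured 126 ± 11.3 RPKM in metaphysis cKO and 153 ± 23.2 RPKM in metaphysis WT (SD, n = 3 each), with every cKO library below every WT library, and did not pass (-0.27 ± 0.13 SE, limma adjusted p = 0.203). The share of cartilage in each dissected piece was not tested.

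Of 8 tested genes of prehypertrophic and hypertrophic chondrocytes, 7 rose, 0 fell and 1 did not pass (median 1.08). The parathyroid hormone receptor Pth1r (1.46 ± 0.13), the hedgehog ligand Ihh (1.34 ± 0.19) and the transcription factor Runx3 (0.83 ± 0.13) had the smallest p-values (log2 fold change, SE). Pth1r and Runx3 are also expressed by osteoblasts. The lists share genes, so Col10a1 is counted both here and among the cartilage collagens. Likewise Pth1r is counted both here and among the osteoblast genes. Of 19 other cartilage matrix and secreted genes, 4 rose, 0 fell and 15 did not pass (median 0.61). They included the sulfate donor synthase Papss2 (0.99 ± 0.18), the chondroitin sulfotransferase Chst11 (0.71 ± 0.12) and Edil3 (0.70 ± 0.12). Papss2 and Chst11 act in the sulfation of sugar chains such as those of aggrecan. Of 6 genes for aggrecan cleavage and its inhibition, the proteases Adamts15 (1.77 ± 0.17) and Adamts4 (0.91 ± 0.20) rose and 4 did not pass (median 0.45). Adamts15 measured 3.15, 4.12 and 3.86 RPKM in metaphysis cKO and 0.994, 0.927 and 1.11 RPKM in metaphysis WT, without overlap.

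Among 9 tested chondrocyte regulators, 3 rose, 1 fell and 5 did not pass (median 0.29). Foxc1 (1.22 ± 0.20) and Trps1 (0.49 ± 0.11) were among those that rose. The partner of Sox5, Sox6, fell, at 6.51, 4.60 and 5.16 RPKM in metaphysis cKO and 9.17, 11.2 and 9.83 RPKM in metaphysis WT (log2 fold change -0.89 ± 0.15 SE, limma adjusted p = 0.0171). Every cKO library lay below every WT library, the reverse of Acan and Hapln1. Sox6 is also expressed in red cell precursors. In the same libraries 5 of 11 tested red cell lineage genes fell, and their part in the fall of Sox6 was not tested. Of 8 tested Sox genes other than Sox5 and Sox9, 2 rose, 1 fell and 5 did not pass (median 0.56). Those that rose, Sox18 (0.85 ± 0.13) and Sox7 (0.73 ± 0.17), are genes of endothelium, and the 1 that fell was Sox6.

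Among relatives of the matrix proteins, no rise passed. Of 9 tested matrilin, thrombospondin, lectican and link protein relatives, 0 rose, 1 fell and 8 did not pass (median -0.085). The 1 that fell was Thbs1, at 41.4, 39.3 and 39.4 RPKM in cKO and 62.7, 56.8 and 62.3 RPKM in WT (-0.59 ± 0.08 SE, limma adjusted p = 0.0117). Of 9 tested articular surface and synovial genes, 0 passed (median -0.31), and all 13 listed genes summed to 48.0, 73.9 and 44.9 RPKM in cKO and 65.7, 104 and 43.7 RPKM in WT. Within each genotype that sum was highest in replicate 2, the library with the most Prg4. Of 9 tested tendon and ligament genes, Egr1 (1.76 ± 0.21) and the tendon transcription factor Scx (0.70 ± 0.18) rose and 7 did not pass (median 0.0039). All 10 listed genes summed to 165, 277 and 192 RPKM in cKO and 169, 250 and 124 RPKM in WT, with the same libraries lowest and highest in each genotype as for Comp and Chad. The 12 skeletal muscle genes summed to 3983, 12717 and 3272 RPKM in cKO and 7363, 10894 and 7514 RPKM in WT, also highest in replicate 2 of each genotype. The part of joint surface, tendon or muscle in the values of Comp, Chad, Prg4 and Cytl1 was not tested.

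**Figure D4:**
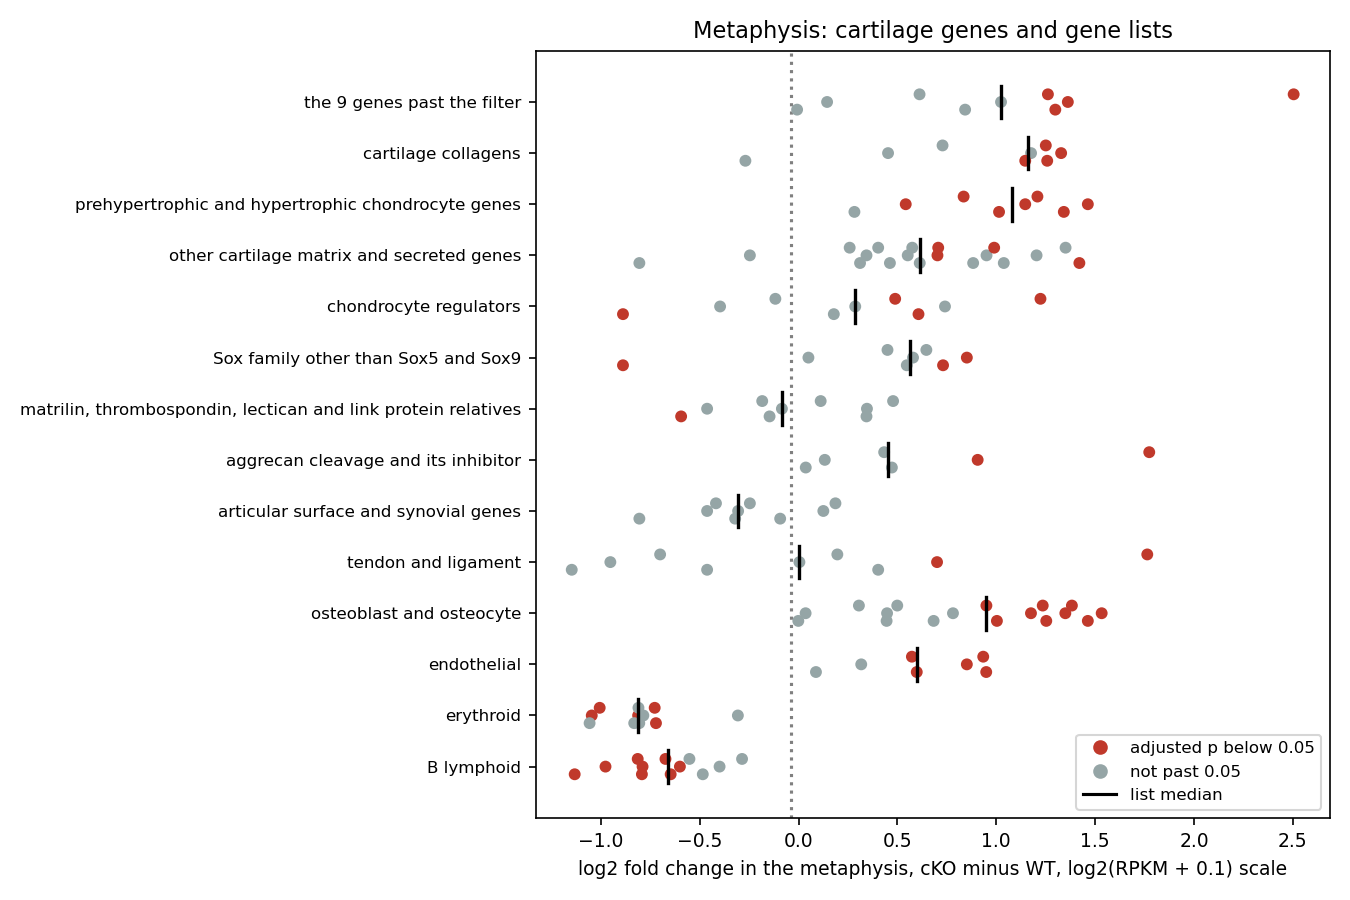
Log2 fold changes of cKO over WT in the metaphysis for the genes of each list that passed the filter, on the log2(RPKM + 0.1) scale, with called genes in red, a bar at the list median and a dotted line at the median of all genes tested. The top row holds 9 of the 10 genes. Hypertrophic chondrocyte genes, cartilage collagens and osteoblast genes have medians near 1, erythroid and B lymphoid genes have medians of -0.81 and -0.66, and articular genes lie around -0.31.

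Markers of other cell types moved with the genotype in the same metaphysis libraries. The 17 osteoblast and osteocyte genes summed to 23994 to 25702 RPKM in cKO and 15374 to 19822 RPKM in WT, and 9 rose, 0 fell and 8 did not pass. Of 7 endothelial genes 5 rose, and they summed to 155 to 162 RPKM in cKO and 102 to 107 RPKM in WT. The 11 erythroid genes summed to 16894 to 22819 RPKM in cKO and 23045 to 25892 RPKM in WT, with 5 lower and 6 not past. The 12 B lymphoid genes summed to 301 to 361 RPKM in cKO and 462 to 576 RPKM in WT, with 8 lower and 4 not past. The 8 megakaryocyte and platelet genes summed to 366 to 507 RPKM in cKO and 614 to 768 RPKM in WT, with 2 lower and 6 not past. Of 12 skeletal muscle genes 1 fell, of 11 neutrophil genes 1 rose, and of 5 adipocyte genes 0 passed. The sums of the bone, vessel, red cell, B cell and megakaryocyte lists did not overlap between the genotypes. Of all tested metaphysis genes, 18.7% had every cKO library above every WT library and 18.4% below. The red cell sum was mostly Hba-a1, and the bone sum mostly Col1a1 and Col1a2. None of these was called (limma adjusted p of 0.296, 0.107 and 0.226). The part of these cell types in the rise of the cartilage genes was not tested. With globin genes left out of the library total the same 4 of the 10 genes were called. In the diaphysis 0 genes of any list were called.

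The genes whose pattern was most like that of Acan were found by Pearson correlation of log2 values over the 12 libraries, centred within each region, among 12321 genes. They were Dact1 (0.986), Loxl1 (0.985), Mxra8 (0.985), Vasn (0.984) and Hoxa10 (0.980). For Comp they were Mgp (0.955), an inhibitor of cartilage calcification, Susd5 (0.946), Eno2 (0.928), Matn4 (0.927) and Pcolce2 (0.921). For Prg4 they included 1500015O10Rik (0.938), Nov (0.910), Fbln7 (0.880) and Tob1 (0.864), and for Sox9 they were Rarres1 (0.968), Phf13 (0.953), Slc35e4 (0.951), Cxx1a (0.945) and Prkcdbp (0.941). The 12 points share genotype, library make-up and diaphysis WT replicate 1. Without that library the correlations were 0.944 to 0.975 for the 5 genes of Acan and 0.882 to 0.957 for the 4 named for Prg4. They were 0.868 to 0.929 for the genes of Comp and 0.903 to 0.939 for those of Sox9. Among the 9 genes measured in the 6 metaphysis libraries, Acan correlated at 0.97 with Hapln1 and with Matn3, 0.93 with Matn1 and 0.91 with Sox9. Its correlations with Comp and Chad were 0.72 and 0.68, and those with Prg4 and Cytl1 were 0.28 and 0.19. Sox9 correlated at 0.86 with Comp and 0.83 with Chad, Matn3 at 0.80 with Comp, and Chad at 0.79 with Prg4 and 0.78 with Cytl1. Matn1, in contrast, correlated at -0.05 with Prg4 and at -0.11 with Cytl1. Acan, Hapln1, Matn1 and Matn3 were called for genotype in these same 6 libraries, and no grouping of the genes was tested.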

How the data were processed

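Per the labels' protocols, diaphysis and metaphysis were dissected from femurs, RNA was taken up in Trizol, and libraries were built with a TruSeq RNA kit, which does not mark strand. The authors deposited 1 table per region holding RPKM per RefSeq transcript and library, per the file headers. Per the submitters' processing notes the tools included Partek 6.6, Bowtie 0.12.7.0, TopHat 1.3.2 and CASAVA 1.8.2, with mm9 as build. Not given in the sources used here were the annotation release, any filter and the counting of ambiguous reads. The tables held 24456 transcripts of 18778 symbols (metaphysis) and 24824 of 19067 (diaphysis), with 0 columns that match no sample.

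Transcripts were summed per symbol. Genes with at least 1 RPKM in 3 of 6 libraries were tested on log2(RPKM + 0.1) by limma (version 3.58.1 in R 4.3.3, mean-variance trend), 2-sided, Benjamini-Hochberg threshold 0.05, each region within its own table. Every adjusted p of a gene is from limma, from these fits unless another setting is named. The contrast between regions used 1 fit of 12 libraries. Ratios to Acan and Dlx3 were tested by exact permutation. Depth was estimated from the steps between low values. Of these, 71.0% to 75.8% lay within 0.1 of a whole read, too few to rebuild counts, so no count test was run, and read numbers given for a gene are approximate and cover counting error only.

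Groups follow the labels. Replicate numbers are in record order and pair nothing. The 10 genes and the gene lists were chosen with earlier results of these data known. Named genes are the 10, Dlx3, up to 3 genes per list with the smallest p among those past the metaphysis threshold, and the 5 genes most like Acan, Comp, Prg4 and Sox9, of which 1 is not reported here. Col2a1, Col11a1, Col1a1, Col1a2, Hba-a1, Fmod, Acsf2 and Tpr were chosen after their values were seen. Some lists share genes, which are counted in each. Gene positions are mm9 and promoters RefSeq GRCm38.p6. Alternatives covered the fit, pseudocounts of 0.01 and 1, the filter, scaling, globin genes, transcript choice and each library left out. Python 3.11.15, pandas 2.3.3, numpy 2.4.6, scipy 1.17.1 and matplotlib 3.10.9 were used.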

Additional observations from a re-analysis of the deposited data

How the results depend on the processing

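No paired analysis was possible because the replicate numbers only name the libraries in record order. Under the other settings tried, the 4 genes that rose in the metaphysis stayed positive. The number of the 10 called there was 3 with no filter, where Matn3 missed (limma adjusted p = 0.0734), 1 in the fit of all 12 libraries, and 2 to 5 when 1 library was left out. The number of all genes called in the metaphysis was 789 with no filter, 8 in the fit of all 12 libraries, and 108 to 1415 with 1 library left out (108 without cKO replicate 3, 156, 239 and 626 without WT replicates 1, 2 and 3). The contrast between regions called 1 gene at a pseudocount of 1 (Matn1, below the diaphysis filter), 2 with no filter, and 0 to 101 with 1 library left out (101 without diaphysis WT replicate 1). Of the 8 metaphysis ratios to Acan, 2 to 4 did not overlap with 1 library left out (4 without cKO replicate 2), and of the 5 diaphysis ratios 3 to 4. Leaving out a library can only keep or raise such counts, so they do not measure stability. The share over all genes is not given for these settings. Signs turned for genes that were not called. Metaphysis Cytl1 became 0.055 at a pseudocount of 1, 0.012 with upper quartile scaling, and 0.83, 0.22, 0.44 and 0.36 without cKO replicates 1 and 3 and WT replicates 1 and 2 (-1.07 to 0.83 over the libraries left out). Metaphysis Prg4 became -0.14 with its highest transcript alone, and -0.75 and -0.36 without cKO replicate 2 and WT replicate 3 (-0.75 to 0.93). In the diaphysis, Acan (-0.72), Chad (-0.53) and Sox9 (-0.19) turned on leaving out WT replicate 1, Hapln1 (0.30) and Comp (0.090) on leaving out replicate 2, and Hapln1 (0.34) on leaving out replicate 3. Their ranges were -0.72 to 0.96 for Acan, -1.11 to 0.34 for Hapln1, -1.71 to 0.090 for Comp, -0.53 to 1.37 for Chad and -0.19 to 0.45 for Sox9. The contrast for Chad turned to -0.020 and -0.22 without metaphysis cKO replicate 2 and WT replicate 3, and to -0.043 and -0.34 without diaphysis WT replicates 2 and 3 (-0.34 to 1.56). The cause was not tested. Depth limits Matn1, Matn3, Cytl1 and Sox5 in the diaphysis, at 0 to 169 reads per library.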
